A study of Mus musculus with 21 samples.

Results

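Histone-modifying enzymes were followed as a set of 63 genes among the 53796 that each expression table lists. They were taken by symbol: the Kdm, Hdac, Kat, Setd, Nsd, Prmt, Ehmt and Sirt genes with a number and the pair Suv39h1 and Suv39h2, without Kdm6a, Kdm6b, Setd1a and Setd1b. By role they comprised 16 lysine demethylases (Kdm), 11 zinc-dependent deacetylases (Hdac), 7 sirtuins (Sirt), 8 lysine acetyltransferases (Kat), 13 lysine methyltransferases (Setd, Nsd, Ehmt and Suv39h) and 8 arginine methyltransferases (Prmt). The rule uses symbols only, but it was set with earlier results of these data known. Expression was measured by RNA sequencing in mouse embryonic stem (ES) cells of the strain V6.5, with 3 libraries in each of 5 groups. The first group, called ES cells here, had no treatment and is labelled with the genotype Cdk1as/as, an analog-sensitive form of the mitotic kinase Cdk1. The series' design text calls the cells of this transcriptome WT instead, so their Cdk1 genotype is unsettled for every ES cell value here. The other groups had unmodified Cdk1 as far as the labels say: control cells with a control guide RNA, labelled WT, and Dot1l KO cells, each in LIF medium without treatment and each under Wnt3a and activin A. Dot1l is the enzyme that methylates H3K79. ES cells were maintained on inactivated mouse embryonic fibroblasts in serum medium with 100 U/ml leukemia inhibitory factor (LIF), which keeps them undifferentiated. Differentiation was started on gelatin in serum-free N2B27 medium, and after 2 days Wnt3a (50 ng/ml) and activin A (10 ng/ml), signals that drive cells towards the primitive streak, were given for 24 h. These points stay unknown, not given in the sources used here: whether the KO cells were 1 clone or a pool, and whether replicates were separate cultures. The p-values therefore reflect only how far these libraries spread, which may be technical.

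Acetylation of histone tails is set by Kat enzymes and removed by the Hdac and Sirt families, the latter of which consume NAD. Methylation of lysines is set mostly by SET-domain enzymes and removed mostly by Kdm enzymes, and Prmt enzymes methylate arginines. Methylated H3K4 and H3K36 are found at active genes and methylated H3K9 at silent chromatin, and several of these enzymes, among them Kdm1a, Hdac1, Hdac2 and Ehmt2, are known to act in the silencing of ES cell genes during differentiation. Several members have main substrates other than histones: Setd3 methylates actin, Hdac6 deacetylates tubulin, and Sirt3, Sirt4 and Sirt5 are mitochondrial.

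Dot1l transcript, the check of the labels, was lower in every KO library but not absent. In LIF the controls held 21.2, 20.6 and 24.6 FPKM (fragments per kilobase of transcript, scaled by library size) and the KO libraries 11.2, 8.90 and 10.8. Under Wnt3a and activin A the values were 18.5, 17.7 and 19.1 in controls against 13.5, 12.9 and 14.7 in the KO; the deleted part of the gene is unknown, not given in the sources used here, so RNA from the rest of it may be counted. Summed FPKM ran from 835740 to 1079800 over the 6 LIF libraries, and the 1 highest, KO replicate 3, had 28.6% of it in Mir6236. Under Wnt3a and activin A it ran from 1088000 to 1144400 in the controls and from 759250 to 792380 in the KO, without overlap. Read depth is unknown for all libraries. Levels are set side by side across the 3 tables without a test, since each table was made separately.

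In undifferentiated ES cells nearly the whole set was detected: 61 of 63 members had a mean of at least 1 FPKM, with a median of 21.4 FPKM over members. Prmt1, the main enzyme of asymmetric arginine methylation, was the highest at 308 ± 27.2 FPKM (SD, n = 3), and Prmt6 the lowest of its family at 3.76 ± 0.164. Kdm1a, the flavin-dependent H3K4 demethylase of the CoREST complex, led the demethylases with 129 ± 10.8 FPKM. The deacetylase Hdac2, a subunit of the NuRD and Sin3 complexes, stood at 109.7 ± 21.8 FPKM and the acetyltransferase Kat7, also named HBO1, at 111 ± 4.56. These 4 genes were each at the top of their role in ES cells. Setd6, known for methylating the transcription factor RelA, led the lysine methyltransferases at 59.4 ± 3.48 and Setd4 was lowest at 4.14 ± 0.366. Sirtuins spanned the narrowest range of means, from 4.31 ± 0.121 for the nucleolar Sirt7 to 22.0 ± 1.59 for the mitochondrial Sirt3. Kat6a, also named MOZ, was the lowest acetyltransferase at 10.7 ± 1.52. Hdac9, the lowest deacetylase, held 1.05, 1.38 and 1.17 FPKM in the 3 libraries. The members under 1 FPKM were the testis-biased Kdm4d, listed at 0.0141, 0.0163 and 0.00626, and the Y-linked Kdm5d, listed at 0.0137, 0.0168 and 0.00936. The highest value of either in any library of the 3 tables was 0.103 FPKM.

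**Figure D1:**
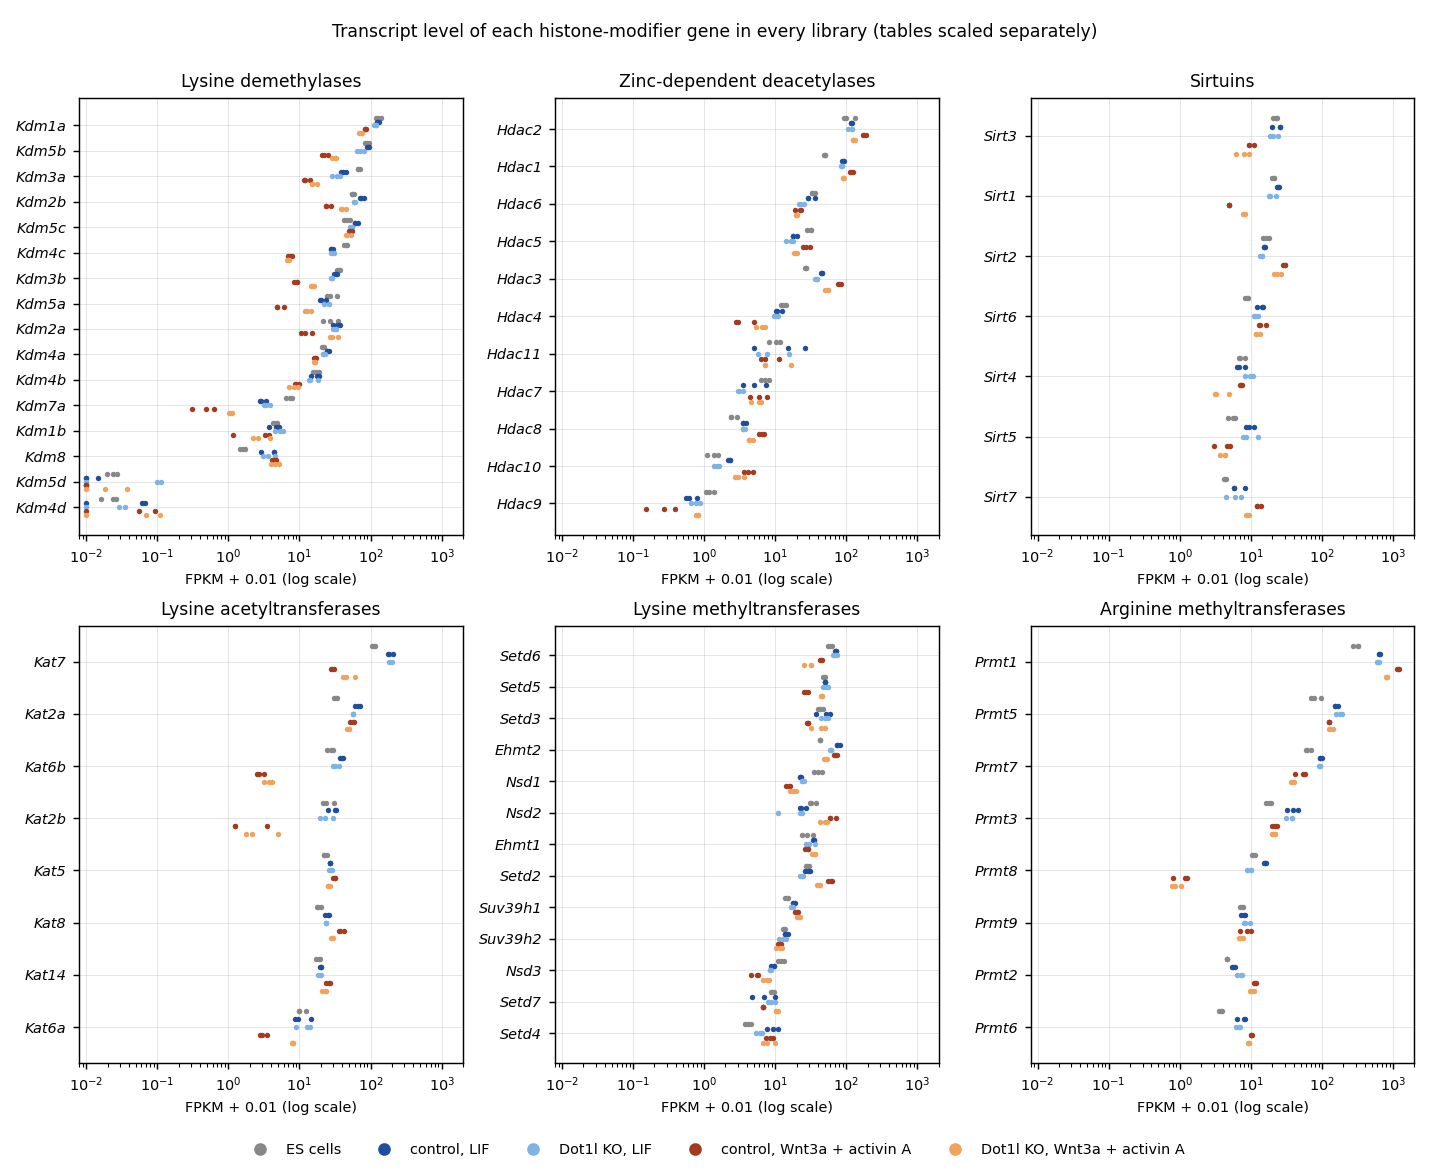
Each panel is 1 enzyme role and each row 1 member, ordered by its mean in ES cells; the x axis is FPKM + 0.01 on a log scale, and each point is 1 library, 3 per group and 5 groups by colour. Prmt1 is the highest member in every group, and Kdm4d and Kdm5d lie at the left edge in all of them.

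The order of the levels was not the same in differentiating cells, although no test joins the tables. The median over members was 23.9 FPKM in LIF controls and 12.6 in controls under Wnt3a and activin A, against 21.0 and 15.2 in the KO. Kat7 headed the acetyltransferases in LIF controls with 177, 185 and 205 FPKM and stood at 28.5, 30.4 and 27.9 in Wnt3a and activin A controls, where Kat2a was highest with 59.2, 52.2 and 56.9. Prmt8, a membrane-anchored arginine methyltransferase, had 15.9, 15.4 and 16.1 FPKM in LIF controls and 0.791, 1.25 and 1.18 under the factors. The values of Kat6b, a close relative of Kat6a, were 39.1, 36.8 and 41.5 and 2.72, 3.12 and 2.55. For Hdac3, the catalytic subunit of the NCoR corepressor, they lay the other way, 44.5, 44.9 and 45.8 in LIF and 83.5, 77.3 and 78.7 under the factors. Prmt1 stayed the highest member in each group, with 658, 639 and 639 FPKM and 1193, 1199.6 and 1148.

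The first comparison, Dot1l KO against control in LIF, moved few of these genes. Of 60 members whose mean over the 6 libraries reached 1 FPKM, 3 fell and 57 did not pass (limma on log2(FPKM + 1), Benjamini-Hochberg adjusted p under 0.05 over all genes). The 3 lower members are 5.00% of those tested, beside 3.45% lower and 0.958% higher among all 13153 genes tested. With 0 members higher in limma, 2 were higher and 16 lower at an unadjusted p under 0.05, and the authors' deposited table also has 0 higher at its q under 0.05. At that unadjusted p in limma stood 18 of 60 members and 3228 of all 13153 genes, whose directions were not counted. The median log2 fold change was -0.12 over members and -0.07 over all genes. Only Hdac9, Kdm4d and Kdm5d were left out by the filter.

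Of the 3 lower members, Prmt8 (ENSMUSG00000030350, chromosome 6, 127689010 to 127769472) moved most. Its controls held 15.9, 15.4 and 16.1 FPKM and the KO libraries 9.91, 8.91 and 10.2, with every KO library under every control, so the KO mean was 0.611 of the control mean. The log2 fold change, KO minus control on the log2(FPKM + 1) scale as throughout, was -0.66 ± 0.0720 (SE, adjusted p = 0.0185). Ehmt2, or G9a, which with Ehmt1 sets H3K9me2, fell less. It had 73.5, 74.7 and 82.5 FPKM in controls and 61.8, 61.9 and 59.2 in the KO, a log2 fold change of -0.33 ± 0.0602 (SE, adjusted p = 0.0429). Kdm2b, a demethylase whose zinc finger binds unmethylated CpG and brings Polycomb complex PRC1 to CpG islands, had 72.7, 71.2 and 80.7 FPKM in controls and 60.8, 57.9 and 58.7 in the KO, a log2 fold change of -0.33 ± 0.0626 (SE, adjusted p = 0.045). The groups overlapped for none of the 3 genes, and KO libraries lay below all controls for 20 members and above them for 3. How many of all genes did so was not counted, so the numbers of members cannot be set against a background. Leaving out any 1 of the 6 libraries ended all 3 calls, with adjusted p from 0.0589 to 0.0801 for Prmt8, 0.072 to 0.134 for Ehmt2 and 0.0818 to 0.136 for Kdm2b. Prmt8 passed, and Ehmt2 and Kdm2b did not, with no filter, in limma without a trend, with quantile normalization and after removal of the span and level trend, a fit of each library's deviations on gene span and mean level that is subtracted from its values.

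Under Wnt3a and activin A the same comparison reached 32 of 58 members, in both directions. Of 58 members tested, 14 rose, 18 fell and 26 did not pass. That is 24.1% higher and 31.0% lower, beside 19.6% and 29.5% of all 12770 genes tested, so the share of members called was near the background in each direction. After quantile normalization the split was 13 higher and 10 lower, beside 2746 higher and 2889 lower among all 12770 genes. The median log2 fold change was -0.07 over members and -0.08 over all genes, and the range over members ran from -0.81 for Sirt4 to 1.22 for Kdm2a. KO libraries lay above all controls for 16 members and below them for 20. The share of all genes without overlap was not counted, so these counts have no background beside them. Besides Hdac9, Kdm4d and Kdm5d, the filter here left out Kdm7a and Prmt8. Loci are given as the authors list them, and all 63 overlap the gene's RefSeq span on GRCm38.p6. For 37 members, among them Kdm5a, Kdm2b, Kat6a, Hdac4 and Sirt7, the listed locus is shared with another gene, and where genes overlap their values can take reads from each other. In bulk RNA, fewer cells of a type and less RNA per cell cannot be told apart.

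**Figure D2:**
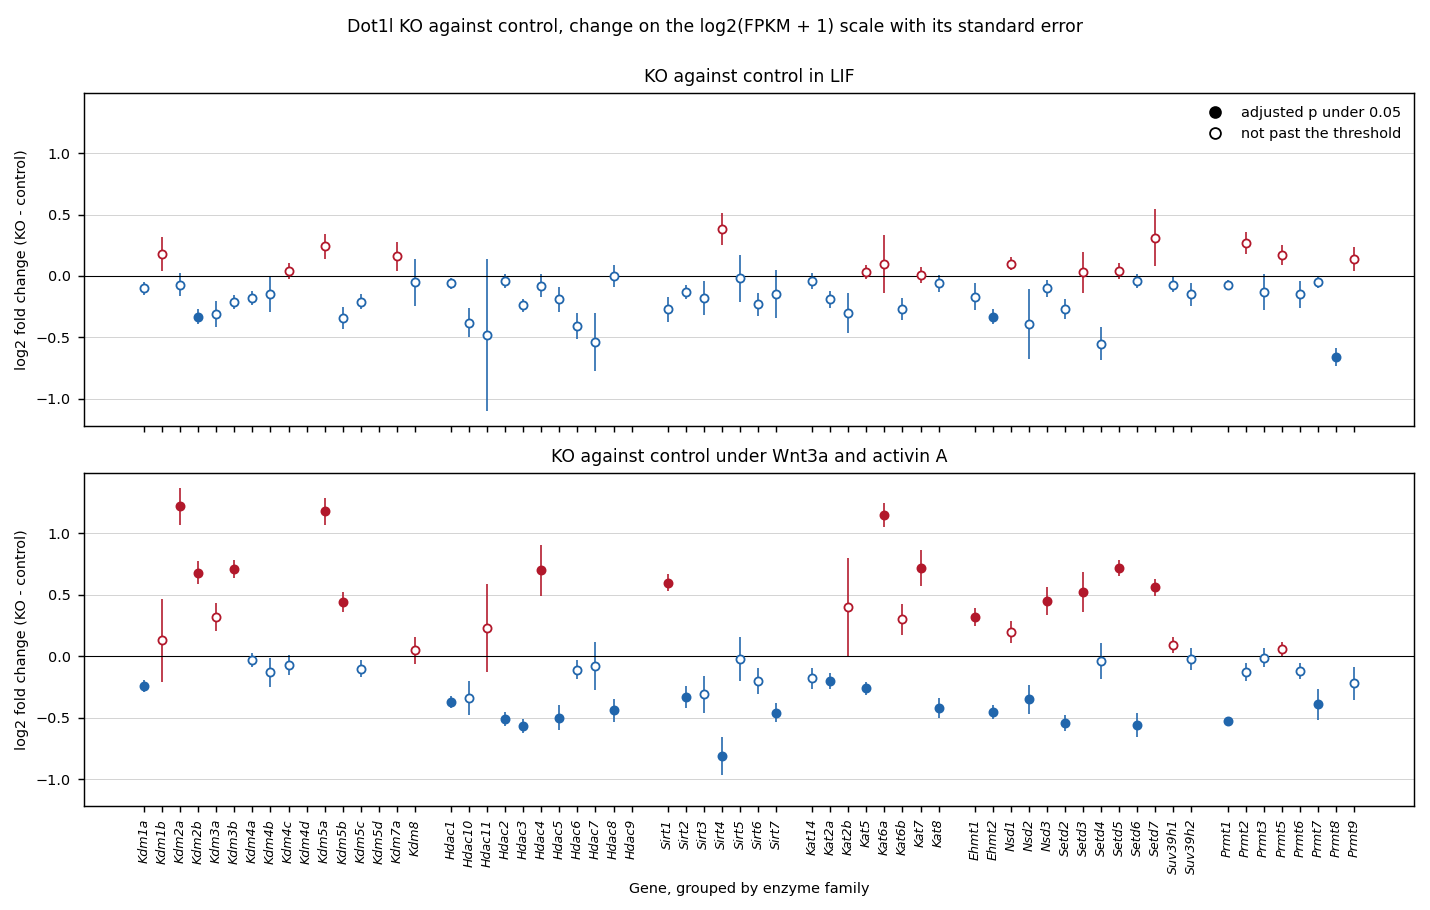
The y axis is the log2 fold change, KO minus control on the log2(FPKM + 1) scale, with its standard error, for each tested member on the x axis in LIF (top) and under Wnt3a and activin A (bottom); filled points passed an adjusted p of 0.05. In LIF 3 points are filled, all below 0, and under the factors 14 are filled above 0 and 18 below.

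On the log2(FPKM + 1) scale, demethylases supplied the 2 highest fold changes of the members tested. By the ratio of KO to control means, Kat6a (2.61) stood above Kdm5a (2.51) and Kdm2a (2.43). Of 13 Kdm genes tested, 5 rose (Kdm2a, Kdm5a, Kdm3b, Kdm2b and Kdm5b) and Kdm1a fell, and these 5 also passed as higher after quantile normalization and after median-of-ratios rescaling. Kdm2a (ENSMUSG00000054611, chromosome 19, 4314418 to 4398285), an H3K36 demethylase that binds CpG islands, had 10.4, 12.03 and 14.8 FPKM in controls and 34.8, 28.5 and 27.3 in the KO. Every KO library was higher than every control, by 2.43-fold in the means and 1.22 ± 0.15 (SE, adjusted p = 0.00106) on the log2 scale. Kdm5a (ENSMUSG00000030180, chromosome 6, 120324322 to 120444574), an H3K4 demethylase, had 6.02, 4.81 and 4.87 FPKM in controls and 12.2, 12.8 and 14.4 in the KO, again without overlap. Its log2 fold change was 1.18 ± 0.11 (SE, adjusted p = 0.000418). For Kdm2b the controls held 23.9, 28.2 and 23.8 FPKM and the KO libraries 40.3, 38.6 and 44.6, a rise of 0.68 ± 0.0915 (SE, adjusted p = 0.00158). Kdm2b was thus the 1 member called in opposite directions in the 2 conditions, lower in LIF and higher here. Kdm3b, an H3K9 demethylase, and Kdm5b, an H3K4 demethylase, had log2 fold changes of 0.71 and 0.44. Kdm1a fell from 83.5, 85.8 and 83.1 FPKM to 68.0, 74.8 and 70.7, a log2 fold change of -0.24 ± 0.0508 (SE, adjusted p = 0.00971), but its direction turned after quantile normalization, to 0.08 (adjusted p = 0.182). The 7 Kdm genes that did not pass were Kdm1b, Kdm3a, Kdm4a, Kdm4b, Kdm4c, Kdm5c and Kdm8, with log2 fold changes from -0.13 for Kdm4b to 0.32 for Kdm3a.

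**Figure D3:**
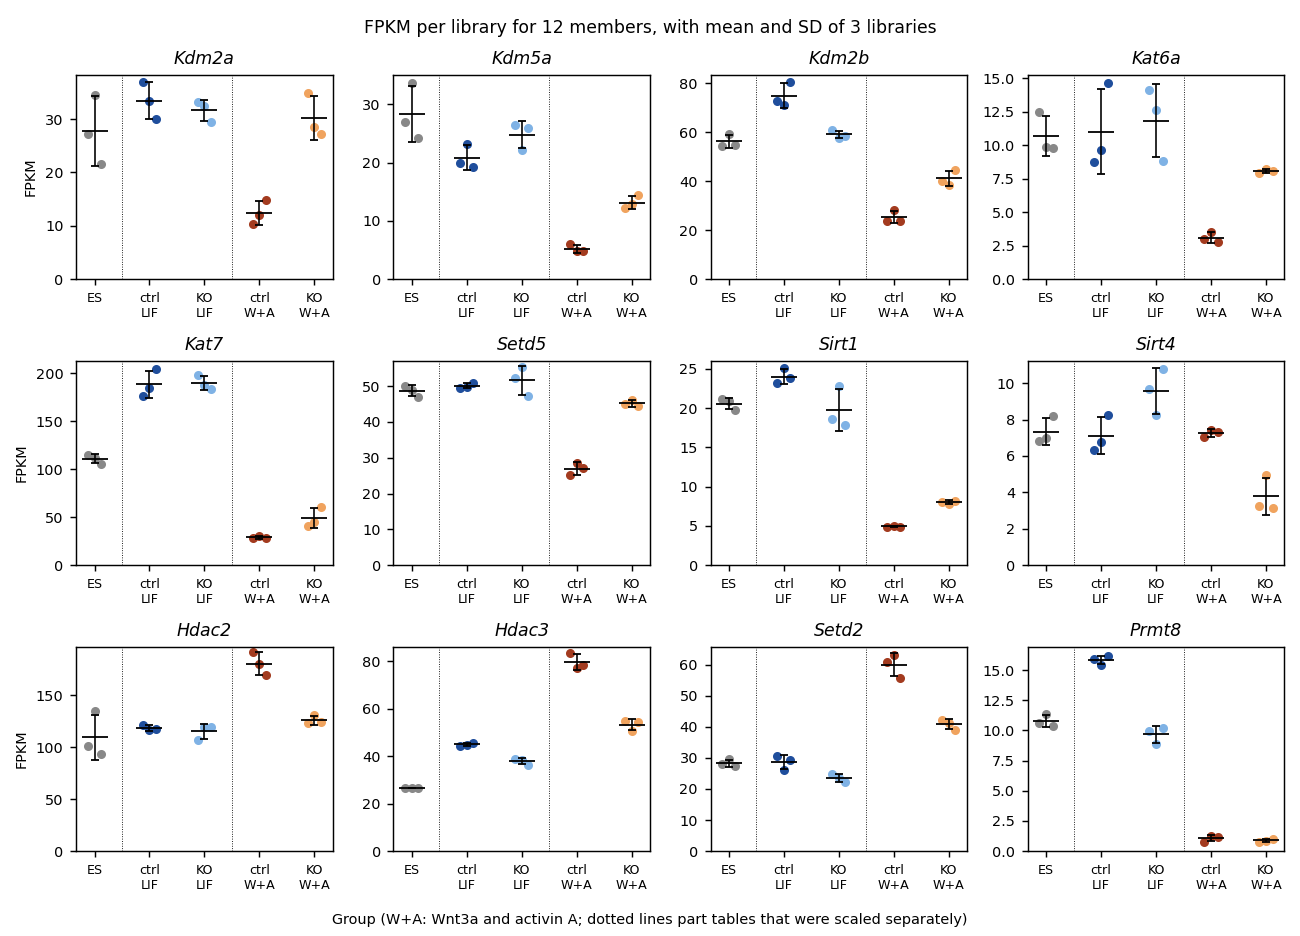
Each panel is 1 of 12 members, the y axis is FPKM from 0, coloured points are libraries and black bars are the mean and SD of 3 libraries, for ES cells, control and KO in LIF, and control and KO under Wnt3a and activin A (W+A). Kdm2a, Kdm5a and Kat6a are higher in all 3 KO libraries under W+A, Sirt4, Hdac2, Hdac3 and Setd2 are lower there, and Prmt8 differs in LIF.

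Among the zinc-dependent deacetylases, 5 of 10 tested fell and 1 rose, and after quantile normalization 4 fell (Hdac3, Hdac5, Hdac8 and Hdac10). The decreases took in all of class I, the nuclear enzymes Hdac1, Hdac2, Hdac3 and Hdac8, together with the class IIa enzyme Hdac5. Hdac3 (ENSMUSG00000024454, chromosome 18, 37935843 to 37954988) had 83.5, 77.3 and 78.7 FPKM in controls and 55.0, 50.6 and 54.6 in the KO. All KO libraries lay under all controls, at 0.669 of the control mean, a log2 fold change of -0.57 ± 0.0562 (SE, adjusted p = 0.000504). Hdac2 (ENSMUSG00000019777, chromosome 10, 36974543 to 37001889) had 192, 180.2 and 169.6 FPKM against 123, 131 and 125, a log2 fold change of -0.51 ± 0.0582 (SE, adjusted p = 0.000838), which came to -0.07 (adjusted p = 0.287) after quantile normalization. Hdac1, its partner in the same complexes, had a log2 fold change of -0.37, which came to 0.02 (adjusted p = 0.802) after quantile normalization and -0.12 (adjusted p = 0.0962) after removal of the span and level trend. Hdac8, encoded on the X chromosome, and Hdac5 had -0.44 and -0.50. Hdac4, a class IIa enzyme that shuttles between nucleus and cytoplasm, rose from 5.06, 2.96 and 2.77 FPKM to 5.39, 7.08 and 6.54, a log2 fold change of 0.70 ± 0.21 (SE, adjusted p = 0.0333). It lost the call without control replicate 2 or 3 or KO replicate 2 or 3, with adjusted p from 0.0879 to 0.099, and with no filter, with quantile normalization and after removal of the span and level trend. The remaining Hdac6, Hdac7, Hdac10 and Hdac11 did not pass. Hdac11 varied within groups, with 11.3, 6.42 and 7.12 FPKM in controls and 7.15, 16.6 and 7.25 in the KO, and its groups overlapped.

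The sirtuins split. Sirt1 (ENSMUSG00000020063, chromosome 10, 63319004 to 63381704), a nuclear deacetylase of histones and p53, had 4.90, 4.96 and 4.91 FPKM in controls and 8.08, 7.73 and 8.20 in the KO. The controls had an SD of 0.0308 FPKM and all KO libraries lay above them, a log2 fold change of 0.60 ± 0.0721 (SE, adjusted p = 0.00101). Sirt4 (ENSMUSG00000029524, chromosome 5, 115478009 to 115484725), a mitochondrial enzyme, had 7.02, 7.42 and 7.32 FPKM in controls and 3.23, 4.95 and 3.15 in the KO. Its KO mean was 0.521 of the control mean, and its log2 fold change of -0.81 ± 0.16 (SE, adjusted p = 0.00671) was the lowest of any member. Sirt7, a nucleolar deacetylase of H3K18, fell from 12.2, 12.3 and 13.8 FPKM to 8.64, 8.88 and 9.40, a log2 fold change of -0.46 ± 0.0780 (SE, adjusted p = 0.00402). Sirt2, mainly a tubulin deacetylase, also passed as lower (-0.33), but not without control replicate 2 or 3 or KO replicate 1 or 2 (adjusted p 0.0649 to 0.0741), nor after rescaling by median of ratios (-0.27, adjusted p = 0.0555), quantile normalization (-0.21, adjusted p = 0.133) or removal of the span and level trend (-0.23, adjusted p = 0.104). The other 3, Sirt3, Sirt5 and Sirt6, had log2 fold changes from -0.31 to -0.02 and did not pass. Sirt3 shares its listed locus with 10 other genes, more than any other member.

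Of the 8 acetyltransferases, Kat6a and Kat7 rose and Kat8, Kat5 and Kat2a fell. Kat6a (ENSMUSG00000031540, chromosome 8, 22859534 to 22943259), which acetylates H3 within complexes with Brpf proteins, had 3.00, 3.53 and 2.76 FPKM in controls and 7.90, 8.19 and 8.10 in the KO. That was 2.61-fold in the means, a log2 fold change of 1.15 ± 0.0994 (SE, adjusted p = 0.000318), with no overlap. Kat7 (ENSMUSG00000038909, chromosome 11, 95274258 to 95310246), the H3K14 acetyltransferase, had 28.5, 30.4 and 27.9 FPKM in controls and 40.9, 45.3 and 60.8 in the KO, a log2 fold change of 0.72 ± 0.15 (SE, adjusted p = 0.00822). The highest of its KO libraries stood well apart from the other two, which were still above all controls. Kat8, or MOF, the H4K16 acetyltransferase, fell from 42.8, 35.5 and 37.7 FPKM to 28.5, 28.0 and 29.4, a log2 fold change of -0.42 ± 0.0790 (SE, adjusted p = 0.00632) that came to -0.16 (adjusted p = 0.145) after removal of the span and level trend. Kat5, or Tip60, the H4 and H2A acetyltransferase of DNA repair, went from 29.9, 31.3 and 31.6 FPKM to 26.5, 24.8 and 25.4, a log2 fold change of -0.26 ± 0.0546 (SE, adjusted p = 0.00867) that turned to 0.05 (adjusted p = 0.569) with that trend removed and did not pass after quantile normalization. Kat2a, the catalytic subunit of SAGA, had -0.20, but its direction turned to 0.06 (adjusted p = 0.432) after quantile normalization and to a called 0.23 (adjusted p = 0.0144) after removal of the span and level trend. Its call as lower held only when control replicate 2 was the library left out, with adjusted p from 0.0749 to 0.119 without each of the others. Kat2b, Kat6b and Kat14 did not pass. In Kat2b the second replicate was the highest in both groups, 1.25, 3.53 and 1.22 FPKM in controls and 2.16, 4.98 and 1.78 in the KO.

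Lysine methyltransferases moved in both directions, 5 of 13 higher and 4 lower. Setd5 (ENSMUSG00000034269, chromosome 6, 113077364 to 113153435), a SET-domain protein tied to intellectual disability, had 25.1, 28.6 and 27.2 FPKM in controls and 44.9, 46.2 and 44.4 in the KO, a log2 fold change of 0.72 ± 0.0631 (SE, adjusted p = 0.000325). Setd7, which monomethylates H3K4 and many other proteins, rose from 6.83, 6.76 and 6.83 FPKM to 10.1, 11.1 and 10.4, a log2 fold change of 0.56 ± 0.0697 (SE, adjusted p = 0.00115). Both genes had no overlap between the groups. Setd2 (ENSMUSG00000044791, chromosome 9, 110532596 to 110618633), the enzyme of H3K36 trimethylation on transcribed genes, lay the other way with 61.0, 63.2 and 55.8 FPKM in controls and 42.1, 41.3 and 39.1 in the KO, a log2 fold change of -0.54 ± 0.0644 (SE, adjusted p = 0.000983). Setd6 had 45.5, 42.1 and 44.9 FPKM against 25.5, 32.4 and 31.6, a log2 fold change of -0.56 ± 0.10 (SE, adjusted p = 0.00516) that came to -0.14 (adjusted p = 0.199) after removal of the span and level trend. The H3K9 pair was parted, Ehmt1 higher at 0.32 and Ehmt2 lower at -0.45; both calls ended after removal of the span and level trend, and that of Ehmt2 also after quantile normalization. So were the H3K36 enzymes Nsd3, higher at 0.45, and Nsd2, lower at -0.35, while Nsd1 did not pass at 0.20. The actin methyltransferase Setd3 passed as higher at 0.52. Calls ended for Nsd3 without control replicate 1 or KO replicate 1 or 3 (adjusted p 0.0522 to 0.0682), for Nsd2 without any 1 library but KO replicate 3 (0.0686 to 0.121) and for Setd3 without any 1 but KO replicate 2 (0.086 to 0.106). That of Nsd3 also ended after quantile normalization (0.33, adjusted p = 0.0646) and after removal of the span and level trend (0.12, adjusted p = 0.449). That of Nsd2 ended after quantile normalization (-0.07, adjusted p = 0.602), after rescaling by median of ratios (-0.29, adjusted p = 0.0726), with no filter and in limma without a trend. That of Setd3 ended after removal of the span and level trend (0.45, adjusted p = 0.0877), with no filter and in limma without a trend. Setd4, Suv39h1 and Suv39h2 did not pass, with log2 fold changes of -0.04, 0.09 and -0.02.

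Of 7 arginine methyltransferases tested, Prmt1 and Prmt7 were called, both lower. Prmt1 (ENSMUSG00000109324, chromosome 7, 44975988 to 44986568) had 1193, 1199.6 and 1148 FPKM in controls and 803, 821 and 824 in the KO, without overlap and with a KO mean of 0.691 of the control mean. Its log2 fold change was -0.53 ± 0.0327 (SE, adjusted p = 0.000116), but 0.07 (adjusted p = 0.176) after quantile normalization and 0.08 (adjusted p = 0.107) after removal of the span and level trend, so its direction rested on the scaling. Prmt7, which makes monomethyl arginine, had 54.9, 58.02 and 41.6 FPKM against 39.0, 39.8 and 37.0, a log2 fold change of -0.39 ± 0.13 (SE, adjusted p = 0.0446). The call of Prmt7 ended without any 1 library but control replicate 3 (adjusted p 0.0865 to 0.122) and under no filter, median-of-ratios rescaling, quantile normalization and removal of the trend. Prmt5, the main enzyme of symmetric arginine methylation, had 125, 126 and 127 FPKM in controls and 126, 142 and 128 in the KO, and its log2 fold change of 0.06 ± 0.0547 (SE) did not pass. Prmt2, Prmt3, Prmt6 and Prmt9 had log2 fold changes from -0.22 to -0.01 and did not pass either.

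The authors' deposited table, made from the same libraries, gave a similar count at its q under 0.05. There, 14 members were higher and 15 lower, beside 19.8% and 25.3% of the 13959 genes it tested. Of these, 12 higher and 14 lower members were the ones called in limma. It added Hdac9 and Kdm7a as higher and Prmt9 as lower, and left out Kdm5b, Setd3, Kat5, Nsd2, Sirt2 and Sirt7. In LIF the authors' deposited table has 2 members lower, both among the 3 of limma, beside 3.54% of its 14960 genes lower and 3.20% higher.

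Markers of other cells and of RNA composition moved with the genotype in the same libraries. Summed FPKM of the 11 fibroblast and feeder genes was 40.5 to 61.4 in LIF controls and 75.5 to 83.0 in the KO, and 292 to 323 against 126 to 134 under the factors. In the ES cells, set beside these without a test, the same sum was 152 to 204 FPKM. Of the 7 tested, 2 (Acta2 and Timp3) were higher in LIF, and 4 were higher and Tagln lower under the factors. There Tagln alone held 281, 280 and 250 FPKM in controls and 75.6, 81.2 and 78.4 in the KO, most of the sum in both groups. Lum and Dcn stayed under 1 FPKM in every group, but most others of the list did not. Col1a1 had means of 8.82 FPKM in ES cells, 1.33 and 3.89 in control and KO in LIF, and 2.83 and 6.03 under the factors. The share of fibroblast RNA in the libraries was not tested. Summed mitochondrial transcripts were 2355 to 2717 FPKM in LIF controls against 3557 to 4257 in the KO, and 4555 to 4707 against 5557 to 6433 under the factors, with 5 of 6 tested genes higher in the KO in LIF and 3 of 6 under the factors. The 8 pluripotency genes summed to 3900 to 4070 FPKM in LIF controls against 3204 to 3286 in the KO, and to 2446 to 2592 against 1519 to 1622 under the factors. Of these 8, 7 were lower in LIF and Klf4 did not pass (-0.47); under the factors 6 were lower, Klf4 was higher (0.78) and Sox2 did not pass (0.14). Pou5f1, the most abundant of them there, had 1904, 1889.8 and 1759.5 FPKM in controls and 1049.6, 1142 and 1138 in the KO under the factors. The 6 primitive streak genes summed to 653 to 707 in controls and 1034 to 1070 in the KO under the factors, where all 6 were higher, and to under 5 FPKM in every ES cell and LIF library. The part of these shifts in the values of the histone-modifying enzymes was not tested.

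The change with the KO differed between the conditions for 24 of 58 members, by an interaction term over the 12 libraries. It was higher under Wnt3a and activin A for 14 (24.1%) and lower for 10 (17.2%), beside 17.6% and 20.7% of the 11783 genes tested in both tables. Demethylases made up 6 of the 14, with Kdm3a joining the 5 named above. The 5 with the highest difference were Kdm2a at 1.30 ± 0.18 (SE, adjusted p = 0.00038), Kat6a at 1.05, Kdm2b at 1.02, Kdm5a at 0.94 and Kdm3b at 0.91 on the log2 scale. In LIF these genes had log2 fold changes of -0.07, 0.10, -0.33, 0.24 and -0.21, of which only that of Kdm2b had passed. Sirt1 (0.88), Hdac4 (0.79), Kdm5b (0.78), Kat7 (0.70), Setd5 (0.68), Kdm3a (0.62), Kat6b (0.56), Nsd3 (0.55) and Ehmt1 (0.49) made up the rest. After removal of the span and level trend 12 of the 24 calls remained in their direction, 8 higher and 4 lower, and after quantile normalization 18 remained, 12 higher and 6 lower. With the trend removed Kat6a had 0.65 (adjusted p = 0.0782), Hdac4 0.40 (0.224), Kdm3a 0.38 (0.095), Ehmt1 0.29 (0.158), Nsd3 0.16 (0.424) and Kat6b 0.11 (0.598), and none of these 6 passed. Quantile normalization ended the calls of Hdac4 (0.62, adjusted p = 0.0627) and Kat6b (0.33, adjusted p = 0.102). The call of Hdac4 ended without LIF control replicate 3, LIF KO replicate 2, or control replicate 2 or 3 or KO replicate 2 under the factors (adjusted p 0.0536 to 0.058).

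Sirt4 had the lowest difference at -1.19 ± 0.21 (SE, adjusted p = 0.00149). In LIF it had 6.32, 6.77 and 8.26 FPKM in controls and 9.70, 8.27 and 10.8 in the KO. The KO libraries all lay above the controls, the nearest pair by a narrow margin, and the change did not pass (0.38, adjusted p = 0.147). Under the factors it fell, as given above. Setd6 (-0.52), Hdac2 (-0.47), Prmt1 (-0.46), Hdac8 (-0.45), Prmt2 (-0.40), Kat8 (-0.36), Hdac3 (-0.33), Hdac1 (-0.30) and Kat5 (-0.30) were the other members with a lower difference, and the difference of Prmt1 turned to 0.10 after quantile normalization and 0.04 after removal of the span and level trend. That removal also ended the calls of Setd6 (-0.24, adjusted p = 0.0876), Kat8 (-0.21, 0.139), Hdac1 (-0.15, 0.106), Hdac3 (-0.15, 0.162) and Kat5 (-0.11, 0.377). Quantile normalization ended those of Hdac2 (-0.13, adjusted p = 0.267), Hdac3 (-0.13, 0.217) and Hdac1 (-0.02, 0.859). Ehmt2, lower in both conditions (-0.33 and -0.45), had no interaction call (adjusted p = 0.246).

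Other genes of the same machinery, from a list of 92 symbols that the rule did not take, were counted in the same fits. Whsc1 and Whsc1l1, older names of the members Nsd2 and Nsd3, and Mideas were on the list but had no values. In LIF 5 of 89 tested fell, Dot1l itself (-1.04), Sap30 (-0.38), Kmt5c, Mta1 and Mta3, beside the 3.45% of all genes given above. Dot1l is the targeted gene and a check of the labels, yet it is counted among the lower genes in both conditions. Under Wnt3a and activin A 38 of 88 rose (43.2%) and 23 fell (26.1%), beside 19.6% and 29.5% of all genes tested, with a median log2 fold change of 0.16 against -0.08 over all genes. All counts of this list are from the main fit alone. How far they depend on the scaling and on gene span is not given here. By group these were 2 higher and 1 lower of 5 acetyltransferases, 5 and 4 of 13 methyltransferases, 2 and 3 of 6 demethylases, 11 and 7 of 23 subunits of deacetylase corepressors, 14 and 6 of 32 subunits of acetyltransferase complexes, and 4 and 2 of 9 readers. Ep300, the coactivator acetyltransferase, had 5.76, 7.09 and 5.56 FPKM in controls and 18.4, 24.2 and 20.1 in the KO, a log2 fold change of 1.62 ± 0.13 (SE, adjusted p = 0.000279). Crebbp, its close relative, named after its value was seen, had 1.55. Tbl1xr1, a subunit of the NCoR corepressor that holds Hdac3, had 8.996, 2.95 and 9.75 FPKM against 19.7, 28.5 and 18.0, a log2 fold change of 1.59 ± 0.41 (SE, adjusted p = 0.0204). In the Sin3 complex, the scaffold Sin3b fell from 200.1, 197 and 208 FPKM to 101, 102 and 105 (-0.96) and its subunit Sap30 from 63.9, 64.0 and 62.0 to 31.8, 32.6 and 32.3 (-0.95), while Sin3a was among the genes that rose.

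In differentiating cells the log2 fold change went with the length of the gene, in the members as in all genes. With all tested genes cut into 5 bins of equal size by gene span, the median log2 fold change was -0.45, -0.25, -0.09, 0.11 and 0.26 from the shortest to the longest bin. The members in these bins numbered 4, 8, 12, 15 and 19, and their medians were -0.27, -0.34, -0.21, -0.08 and 0.40. In the longest bin, above 64.3 kb, 10 members rose and 3 fell, and in the 3 shortest, below 29.3 kb, 1 rose (Sirt1, 20.0 kb) and 12 fell. Among all genes in the longest bin 37% rose and 11.9% fell. From the shortest bin to the third, 5.05%, 11.5% and 15.5% of all genes rose and 47.3%, 42.2% and 29.7% fell. Members that rose had a median span of 78.3 kb and those that fell 20.0 kb. Hdac8 (221 kb), Setd2 (86.1 kb) and Nsd2 (77.3 kb) were the long genes that fell. Spearman's rho between span and log2 fold change was 0.508 over the 58 members and 0.400 over all 12770 genes, and with mean level -0.333 and -0.330. These points come from the same 6 libraries and are a description. After removal of the span and level trend, 19 of the 32 member calls remained in their direction, 10 higher and 9 lower. The higher ones were Kdm2a, Kdm5a, Kat6a, Setd5, Kat7, Kdm3b, Kdm2b, Sirt1, Setd7 and Kdm5b, and the lower ones Sirt4, Hdac3, Setd2, Hdac2, Hdac5, Sirt7, Hdac8, Nsd2 and Kdm1a.

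**Figure D4:**
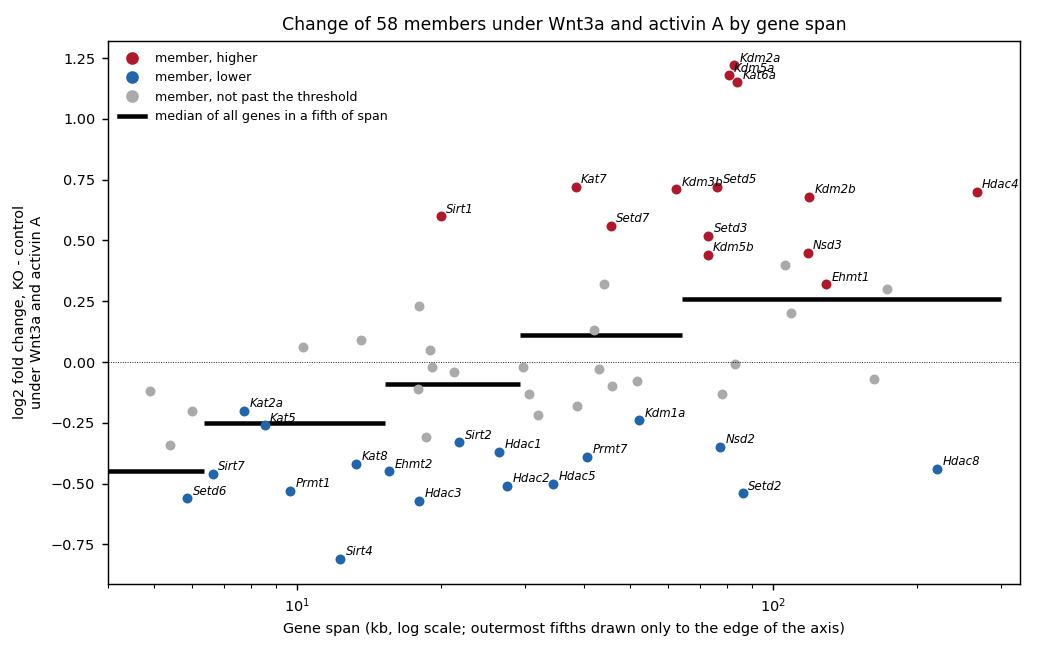
The x axis is gene span in kb on a log scale and the y axis the log2 fold change, KO minus control, under Wnt3a and activin A; each point is 1 of 58 members, red where it rose, blue where it fell and grey where it did not pass, and black lines are the medians of all genes in 5 bins of span. The lines climb from -0.45 to 0.26, and 10 of the 14 red points lie in the longest bin, where 37% of all genes rose.

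Promoter sequence, the 250 bases before each start that the RefSeq promoter table on GRCm38.p6 lists, was on hand for 52 members with 72 starts, out of 32851 starts in all. Members had a median of 17 CpG dinucleotides and 60.4% G and C in this window, against 6 and 52.4% over all starts. The GC box (GGGCGG, bound by Sp factors) was found on either strand in 59.7% of member promoters and 32.7% of all. For CCAAT the shares were 40.3% and 33.8%, and for the TATA box (TATAAA) 5.56% and 12.4%, again on either strand; GC box and CCAAT matches overlapped in 0 member promoters. Promoters of 4 members are shown, picked by hand from those that rose or fell under Wnt3a and activin A and had a single start listed. Other members, such as Setd2 and Hdac4, met the same terms and are not shown. Sirt1 at chr10:63339036-63339285 (minus strand) and Kat7 at chr11:95310247-95310496 (minus strand) rose, and Hdac2 at chr10:36974294-36974543 (plus strand) and Sirt4 at chr5:115484298-115484547 (minus strand) fell. The windows of Hdac2 and Sirt4 precede a start inside the RefSeq span of the gene and lie within that span, that of Hdac2 but for its outermost bases, while those of Sirt1 and Kat7 lie just outside it. Capitals mark GC boxes and CCAAT on either strand.
Sirt1: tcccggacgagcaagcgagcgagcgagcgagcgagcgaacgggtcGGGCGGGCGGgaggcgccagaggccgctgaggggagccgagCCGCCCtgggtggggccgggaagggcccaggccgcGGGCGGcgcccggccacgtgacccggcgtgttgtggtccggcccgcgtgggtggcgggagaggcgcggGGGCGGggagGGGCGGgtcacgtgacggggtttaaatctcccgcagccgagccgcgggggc
Kat7: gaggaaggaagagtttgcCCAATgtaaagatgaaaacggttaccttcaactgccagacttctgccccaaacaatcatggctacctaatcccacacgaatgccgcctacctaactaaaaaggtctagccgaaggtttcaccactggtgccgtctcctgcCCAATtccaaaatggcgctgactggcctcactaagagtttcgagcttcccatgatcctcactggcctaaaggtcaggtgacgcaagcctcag
Hdac2: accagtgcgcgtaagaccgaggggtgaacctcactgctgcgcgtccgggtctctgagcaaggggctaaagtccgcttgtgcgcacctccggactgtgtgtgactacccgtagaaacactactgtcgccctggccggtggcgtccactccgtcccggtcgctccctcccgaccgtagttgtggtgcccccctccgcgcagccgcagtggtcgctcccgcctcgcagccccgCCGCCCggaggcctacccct
Sirt4: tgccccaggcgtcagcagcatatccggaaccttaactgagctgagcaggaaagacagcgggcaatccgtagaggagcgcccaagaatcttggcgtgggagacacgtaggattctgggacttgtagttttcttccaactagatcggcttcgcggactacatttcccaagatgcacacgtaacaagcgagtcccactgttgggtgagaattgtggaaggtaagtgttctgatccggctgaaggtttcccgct
The promoter of Sirt1 held 39 CpG and 6 GC boxes, that of Kat7 held 8 CpG and 2 CCAAT matches, that of Hdac2 held 27 CpG and 1 GC box, and that of Sirt4 held 14 CpG and no match to either motif. The members that rose and those that fell each included 1 promoter with a GC box among the 4 shown, a count that rests on the choice of these 4. A match is a description of the letters and not of a bound site.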

How the data were processed

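RNA was measured in 15 libraries; 6 chromatin libraries of the series were not used. The deposited expression tables hold the authors' FPKM values, and those of the KO experiments add a p-value and a q-value from the authors. Per the submitters' processing notes, bcl2fastq 2.18, STAR 2.5.4a, Cuffdiff, Cufflinks 2.2.1, MACS2 2.1.1, MACS 1.4.2, Bowtie2 2.2.9 and Bowtie were used, with builds mm9 and GRCm38. Their roles, the scaling between libraries and the annotation release remain unknown, not given in the sources used here. Values in FPKM are relative to the length of the transcript and the size of the library, so a few abundant genes can shift the others, and read depth is unknown, which limits what low genes can show.

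The deposited peak lists give the authors' score per peak. Gene starts of GRCm38.p6 lay inside H3K79me2 peaks no more often than positions 50000 bases away, 3.75% against 3.79% and 3.85% for the DMSO list, so the build was not settled and the peaks were not joined to genes.

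Groups and replicate numbers came from sample titles. Each KO table was tested alone with limma 3.58.1 (R 4.3.3) with an intensity trend on log2(FPKM + 1), keeping genes whose mean over the 6 libraries reached 1 FPKM. All were two-sided; p was adjusted by Benjamini-Hochberg over all genes tested, with a threshold of 0.05. The pseudocount of 1 understates changes of low genes. The interaction of genotype and condition used all 12 libraries. The fits were tested on simulated data. Alternatives were a pseudocount of 0.1, no filter, median-of-ratios rescaling, quantile normalization, no trend, removal of the trend in gene span and level (natural splines, 4 df), a replicate block and leaving out each library. All 63 members matched the tables of gene names and of RefSeq spans; 37 share their listed locus with another gene. The members and lists were chosen with earlier results of these data known. Named genes were, per comparison and role, up to 2 members higher and 2 lower with the largest change among those called, members called in opposite directions, the 5 per direction with the largest interaction, and the highest and lowest of each role in ES cells. From the other machinery up to 2 per direction were taken. Other members are given by name and fold change only, and library values added for some of them were chosen after they were seen. Figures were drawn with matplotlib 3.10.9 in Python 3.11.15.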

Additional observations from a re-analysis of the deposited data

Results flagged for a closer look

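The change with the KO differed between LIF and Wnt3a and activin A, by the interaction term in limma, for the 10 members named by rule. On the log2 scale the difference, Wnt3a and activin A minus LIF, was 1.30 for Kdm2a, 1.05 for Kat6a, 1.02 for Kdm2b, 0.94 for Kdm5a and 0.91 for Kdm3b. It was -1.19 for Sirt4, -0.52 for Setd6, -0.47 for Hdac2, -0.46 for Prmt1 and -0.45 for Hdac8. Under Wnt3a and activin A the KO libraries lay on one side of all controls for each of these 10 genes, while in LIF they did so for Kdm2b, Kdm3b, Prmt1 and Sirt4. These genes were picked for the size of the difference, and the share of all genes without overlap was not counted.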

How the results depend on the processing

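The 3 lower members in LIF became 1 in limma without a trend, without the filter on low values, after quantile normalization and after removal of the span and level trend, and 0 with the replicate block and without any 1 library (range 0 to 0, with 13 to 16 members at an unadjusted p under 0.05 in these limma fits). Over all genes, 2515 to 3080 stood at that unadjusted p in LIF without 1 library. Fewer samples were fitted without a library. For the other settings the cause was not tested. Under Wnt3a and activin A the 18 lower members became 10 with quantile normalization, while the lower ones among all 12770 genes went from 3773 to 2889. Leaving out 1 library gave 11 to 13 higher and 14 to 16 lower members there. For the interaction, the 14 higher members became 9 after removal of the span and level trend, 8 of them among the 14. Among all 11783 genes the higher ones went from 2071 to 1694 with that removal. Leaving out 1 library gave 13 to 16 higher and 10 to 13 lower members for the interaction. Log2 fold changes of members named by rule that turned were, after quantile normalization, 0.08 for Kdm1a, 0.07 for Prmt1 and 0.10 for the interaction of Prmt1, and after removal of the span and level trend 0.05 for Kat5, 0.08 for Prmt1 and 0.04 for the interaction of Prmt1; among the other called members, Hdac1 turned to 0.02 and Kat2a to 0.06 under Wnt3a and activin A after quantile normalization, and Kat2a to a called 0.23 (adjusted p = 0.0144) with the trend removed. The cause was not tested. Over named members and alternatives, 427 values kept their direction and their side of the threshold, 56 kept the direction only and 6 turned. Of the 427, 111 under the factors and 120 of the interaction were leave-one-out fits, while all 18 such values in LIF kept the direction only. Under the factors, quantile normalization and removal of the span and level trend each had 14 kept, 4 with the direction only and 2 turned. Replicate numbers showed no pairing of the samples. Deviations from the group means correlated at -0.0119 to 0.0621 between same-numbered control and KO libraries, and at -0.079 to 0.0728 between differently numbered ones. The replicate block gave 13 higher and 17 lower members under Wnt3a and activin A and 13 and 10 for the interaction, where Kat6a no longer passed (adjusted p = 0.0564). In the LIF table the block left 0 of 3 calls, with 16 of 60 members and 2733 of all 13153 genes at an unadjusted p under 0.05. Under 1 FPKM, changes could not be judged.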
